A study of Mus musculus with 54 samples.

Results

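The 88 genes described here encode the proteins of the mouse cytosolic ribosome. They were chosen by symbol alone: every symbol beginning Rpl or Rps followed by a digit, with Rpsa, Rplp0, Rplp1 and Rplp2, listed in all 4 deposited expression tables, leaving out the S6 kinase genes, Rps19bp1 and entries named as pseudogenes. Of the 19828 symbols found in all 4 tables, 88 met this rule, 53 of the large subunit and 35 of the small. Rpl10l was listed for the fibroblasts alone, and Rpl6l, Rps3a2 and Rps3a3 for the lungs alone, so these 4 were left out.

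The cytosolic ribosome joins a small subunit, which reads the messenger RNA, to a large subunit, which links amino acids, and most ribosomal proteins are needed in equal amounts in each. Their messages typically start with a run of pyrimidines, the 5′ terminal oligopyrimidine (TOP) motif, through which the nutrient sensor mTORC1 and the protein LARP1 control their translation and stability. Leucine, one of the branched-chain amino acids (BCAAs), is a well-known activator of mTORC1. In lung fibrosis, fibroblasts stimulated by TGF-β1 make large amounts of matrix protein, a demand on the translation machinery.

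The study asked what supply and breakdown of BCAAs do to pulmonary fibrosis. Its 54 poly(A) RNA libraries fall into 17 groups. Primary wild-type lung fibroblasts from mice 6 to 8 weeks old were kept for 24 h in complete medium (Complete), in medium without BCAAs (Free), or in that medium with either BCAAs or branched-chain keto acids (BCKAs, their first breakdown products) put back, and then given TGF-β1 at 20 ng/mL or PBS for 48 h, with 3 libraries in each of the 8 groups. Whole lungs came from wild-type male C57BL/6 mice of 10 to 12 weeks in 3 experiments, each setting PBS, bleomycin, and bleomycin plus a treatment side by side. For the water experiment, bleomycin at 1.25 mg/kg was given on normal water or after 7 days of 3 mM BCAAs in the water, and lungs were taken on day 14 (3 mice a group). In the diet experiment the same dose was followed by normal diet or, from day 7 and for 14 days, a diet without BCAAs, and lungs were taken on day 21 (4 mice a group). In the third experiment bleomycin at 3.5 mg/kg was followed from day 3, for 11 days, by daily injection of 10% DMSO or of BT2 at 20 mg/kg, which inhibits the kinase that restrains BCAA breakdown, and lungs were taken on day 14 (3 mice a group). Controls of this experiment are named PBS_DMSO but their treatment is labelled PBS alone, so whether they had DMSO, and at what dose, is not known, and they are called PBS lungs below. Bleomycin damages DNA and is the usual agent for producing lung fibrosis in mice. The labels do not say whether fibroblast replicates were separate animals, so p-values there measure the spread between these cultures.

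All values are TPM, a length-corrected share of each library's transcripts, so a level here is always relative to the rest of that library. A gene was tested where it reached 1 TPM in at least 3 libraries of its table, and was called higher or lower by limma on log2(TPM + 1) where its p, adjusted by Benjamini-Hochberg across the whole table, was under 0.05. Differences are given on that log2 scale ± their standard errors. Of the 88 genes, 85 were tested in the fibroblasts (Rpl39l, Rpl3l and Rps27rt were too low), 84 in the water lungs, and 86 each in the diet and BT2 lungs. The sequencing depth is unknown, so no counting error can be given.

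Start-site sequences show how far these genes share the pyrimidine motif. RefSeq promoters (GRCm38.p6) were matched to 67 of the 88 genes, with 79 entries. The 30 bases centred on the annotated start are printed for genes on which the comparisons turn, 5′ to 3′ on the gene's own strand, with the longest run of C or T in capitals and the first transcribed base in the sixteenth position. Rps6, Rplp2 and Rpl14 hold a long run across the start.
Rps6, chr4:86857353-86857382 (-): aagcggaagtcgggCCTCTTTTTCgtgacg
Rplp2, chr7:141447636-141447665 (+): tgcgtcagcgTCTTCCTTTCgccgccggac
Rpl14, chr9:120571502-120571531 (+): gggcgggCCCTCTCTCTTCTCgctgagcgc
Rps2, chr17:24720048-24720077 (+): aggcagtcgagatctcgcgCTTCTTggagc
Rpl12, chr2:32961697-32961726 (+): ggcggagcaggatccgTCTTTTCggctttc
Rpl4, chr9:64173372-64173401 (+): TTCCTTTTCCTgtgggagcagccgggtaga
Rpl37a, chr1:72711245-72711274 (+): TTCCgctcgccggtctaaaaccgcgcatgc
Rpl36a, chrX:134585639-134585668 (+): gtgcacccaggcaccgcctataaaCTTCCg
Rpl39, chrX:37085208-37085237 (-): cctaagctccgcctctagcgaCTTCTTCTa
Rpl10, chrX:74270801-74270830 (+): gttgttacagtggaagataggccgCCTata
Rps4x, chrX:102189377-102189406 (-): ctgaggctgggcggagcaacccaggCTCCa

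A run of at least 8 pyrimidines lay within this window in 30 of the 79 entries, against 11.9% of 32772 promoter entries of other genes. The letters CTTTCC occurred on the gene strand between 20 bases before and 30 after the start in 16.5% of the entries and in 2.36% of the others. Within the whole 300-base window and on either strand, CCGGAAG (an ETS-type motif) was found in 34.2% of the entries against 8.80%, and AANATGGC (a YY1-type motif) in 21.5% against 6.01%. In 1 entry both occurred, and they did not overlap. A match is a description of these letters in an annotated window, and annotated starts can differ from the starts used in these cells.

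In every table these genes were among the abundant messages, with a median of 541.8 TPM over the 88 genes in the fibroblasts and of 375.0, 553.9 and 423.4 TPM in the water, diet and BT2 lungs. Together they made up 4.51 to 7.52% of all TPM in the 23 fibroblast libraries other than Free_TGFb replicate 1. In the lungs they made up 3.62 to 12.1%. Rplp0, the scaffold of the ribosomal stalk, was among the 5 highest of the 88 in all 4 tables. Rps2, Rpsa, Rpl4 and Rpl13 stood beside it in the fibroblasts, and Rplp1, a stalk protein, Rps3a1 and Rps15 in all 3 lung tables.

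Levels of single members cannot be set between the fibroblast and lung tables. Rps27 had a median of 0.837 TPM and Rps27rt was listed at 0 in all 23 fibroblast libraries, while the lung medians were 322.9 to 639.7 TPM for Rps27 and 85.4 to 273.4 TPM for Rps27rt, a near-identical copy. In the opposite direction Rpl13a, Rpl24, Rpl36al, Rps10 and Rps23rg1 were at least 10 times higher in the fibroblast median than in each lung median. Many ribosomal protein genes have processed copies in the genome, and the sources used here do not give how the authors' counting split reads among them, so the level of any single member is uncertain to that extent. Comparisons below stay within a table.

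Among the tissue-restricted copies, Rpl3l, known from striated muscle, was listed at 0 in 17 of 23 fibroblast libraries and reached at most 1.54 TPM in any lung, against medians of 447 to 1020 TPM for Rpl3. Rpl39l, known from testis, reached at most 3.47 TPM. Rps4l had medians of 23.7 TPM in the fibroblasts and 64.1 to 78.9 TPM in the lungs, against 1120 to 1395 TPM for Rps4x.

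Free_TGFb replicate 1 was kept apart from its group. Its differences from the table's mean spread over the ribosomal protein genes with an SD of 1.204 log2, against 0.114 to 0.452 in the other 23 fibroblast libraries. The widest of those 23 were the 2 other Free_TGFb libraries, replicate 3 at 0.452 and replicate 2 at 0.314, so every result without BCAAs under TGF-β1 rests on libraries that spread more than the rest in the same measure. It was below both other Free_TGFb libraries for 53 of the 88 genes and above both for 21. Rpl39 stood at 47.4 TPM there against 277.3 and 120.2, while Rps2 stood at 5191 TPM against 3254 and 3509. The Free_TGFb group below therefore holds 2 libraries, and its spread is borrowed from the other groups in the fit. One lung library also stood apart: BLM_BCAA_free replicate 3 spread with an SD of 0.778 log2 against 0.145 to 0.263 in the other 11 of its table. It had 17554 symbols above 0, against 23171 to 25632, and a summed red-cell marker level of 24403 TPM, against 799 to 4668 TPM in the 8 lungs of the other groups. Mitochondrial transcripts took 16.5% of its TPM, against 4.38 to 5.66% in the other 3 lungs of its group. Bleomycin lungs on normal diet had 4.41 to 5.29%, and PBS lungs of this table had 12.2 to 17.3%. It was kept in its group, and the count of called genes without it is given beside the diet result. Other differences and medians of that group include it.

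**Figure D1:**
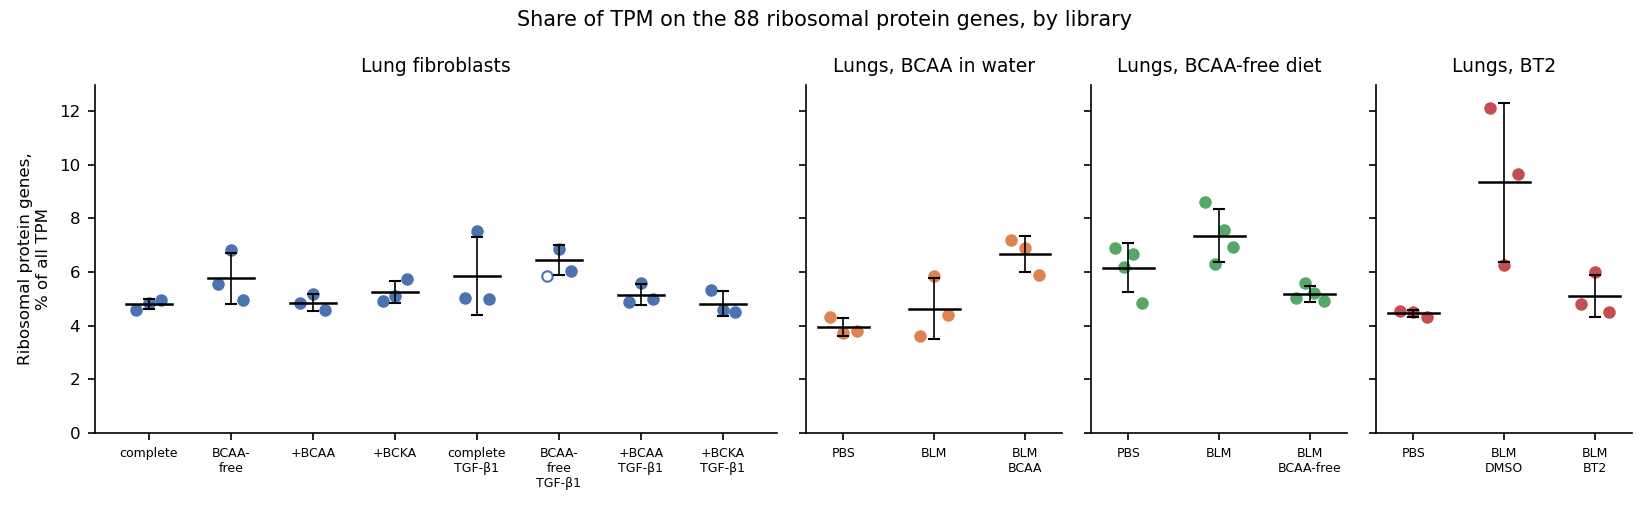
Share of all TPM on the 88 ribosomal protein genes (y axis, %) in each library, by group (x axis) and experiment (panels). Points are libraries, short lines the mean, error bars the SD, and the open point is Free_TGFb replicate 1, left out of its group's mean. The 3 bleomycin lungs of the BT2 experiment sit between 6.25 and 12.1%, above all 6 other lungs of that experiment.

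In fibroblasts in complete medium, TGF-β1 raised a large minority of the ribosomal protein genes by small steps. The effect asked about here is that of the fibrotic stimulus alone. Of 85 tested, 24 were higher and 1 was lower, where 16% and 43.6% of all 13084 genes tested were called higher and lower. The median difference was 0.26 log2 over the ribosomal protein genes and -0.20 over all genes. Both subunits took part, with 13 of 51 large-subunit and 11 of 34 small-subunit genes higher.

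Rps27l, a p53-responsive copy of Rps27, had the largest rise: it went from 82.9, 80.7 and 90.8 TPM to 134.1, 195.7 and 124.7 TPM (0.80 ± 0.18, adjusted p = 0.00068). The groups did not overlap, as the choice of named genes required, and replicate 2 was the highest of the treated cultures. Rpl5, which with Rpl11 carries the 5S RNA, went from 669.7, 704.9 and 721.4 TPM to 888.0, 1284 and 853.6 TPM (0.50 ± 0.12, adjusted p = 0.0011). Rpl30 rose by 0.49 ± 0.18. Rps4l was the gene that fell, by 0.35 ± 0.13, and this call was lost under 6 of 11 alternatives, among them centring each library on its median (-0.16). Among the other genes of fixed interest, Rps6, the substrate of the S6 kinases, rose by 0.48 ± 0.13, Rps27a, made as a fusion with ubiquitin, by 0.49 ± 0.14, and Rpsa, also the laminin receptor precursor, by 0.36 ± 0.12. Fau, a fusion of a ubiquitin-like protein with a ribosomal protein, stood at 0.19 ± 0.16 and was not called.

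Complete_TGFb replicate 2 carried much of this count. The ribosomal protein genes made up 7.52% of TPM in it and 5.02 and 4.99% in the other 2 cultures, against 4.80 ± 0.196% (SD, n = 3) without TGF-β1. Without it 6 genes were higher and 4 lower. Without Complete_PBS replicate 1 or 2 the count of higher genes was 11 or 15, and without Complete_TGFb replicate 3 it was 40. Because most genes lay lower after TGF-β1, scaling also mattered: 64 were higher and 0 lower once libraries were centred on their medians.

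Without TGF-β1, taking the BCAAs away moved none of the 85 genes past the threshold (limma; background 1.18% higher and 0.971% lower). Before adjustment, 25 were higher and 0 lower at p under 0.05, against a background of 4.96% and 7.27%, and the smallest adjusted p was 0.064. The median difference was 0.23 log2, and 74 of 85 lay above 0. Longer and more abundant members lay higher: across 84 genes with a transcript length, Spearman's rho was 0.61 with length, and across all 85 it was 0.67 with level. Library values share depth and composition, so both are descriptions across genes that are not independent. With the trend of length and GC content removed, an alternative chosen after seeing the data, 10 genes were called higher. The summed level of 6 markers of dividing cells was 152.3 to 158.9 TPM without BCAAs and 76.7 to 91.5 TPM with them, and its part in these differences was not tested. Putting BCAAs or BCKAs back into resting cultures changed no ribosomal protein gene past the threshold (0 called by limma in each, with smallest adjusted p of 0.14 and 0.41). The background for these calls was 0.321% higher and 0.405% lower with BCAAs, and 0.864% and 0.558% with BCKAs. At an unadjusted p under 0.05, 19 were lower and 0 higher with BCAAs, and 1 was lower and 0 higher with BCKAs. Of the 85 differences 76 and 75 lay below 0, with medians of -0.21 and -0.10 log2, against 0.04 and 0.03 over all genes. The background was 3.54% lower and 6.45% higher for BCAAs and 3.76% lower and 7.37% higher for BCKAs.

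Under TGF-β1, BCAA withdrawal left a minority of the ribosomal protein genes higher and a few lower. Against complete medium with TGF-β1, 16 of 85 were higher and 8 lower (18.8% and 9.41%), both below the shares of all genes tested, 42.4% and 23.5%. The median difference was 0.02 log2, against 0.18 over all genes, and it turned to -0.18 with centring and to -0.29 with Free_TGFb replicate 1 kept in its group. The differences ran from -1.45 to 0.84 with an SD of 0.41, narrower than the SD of 0.83 over all genes. Centring each library on its median gave 6 higher and 20 lower. Without Complete_TGFb replicate 2 it was 34 higher and 5 lower, without Complete_TGFb replicate 1 the count of higher genes was 9, and without Free_TGFb replicate 2 it was 10 higher and 16 lower. Without Free_TGFb replicate 3, 3 genes were lower.

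The genes that rose included Rps2, Rpsa and Rpl4, 3 of the 5 highest in these cells. Rps2, a small-subunit protein at the mRNA entry, went from 1633, 2429 and 1689 TPM in complete medium to 3254 and 3509 TPM without BCAAs (0.84 ± 0.14, adjusted p = 1.2e-05). Rpl12, a large-subunit protein at the base of the stalk, went from 766.1, 1237 and 771.1 TPM to 1518 and 1649 TPM (0.81 ± 0.15, adjusted p = 5e-05). Rpl4, a large-subunit protein lining the exit tunnel, went from 1376, 1882 and 1355 TPM to 2605 and 2649 TPM (0.79 ± 0.11, adjusted p = 1.5e-06). For all 3 the groups did not overlap, which the choice of named genes required. Each stayed called under every alternative run for it. Free_TGFb replicate 1 was higher still for Rps2 and Rpl12, and for Rpl4, at 1908 TPM, lay just above the highest library in complete medium. Smaller rises were found for Rpl3, Rps3, Rpl14, Rpl18, Rpl6, Rpl10a, Rpl22, Rpl8, Rps18, Rpsa, Rps6, Rps9 and Rpl7l1, from 0.55 down to 0.26.

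Of the 8 genes that fell, 7 encode large-subunit proteins, as do 10 of the 16 that rose and 51 of the 85 tested. Rpl37a fell from 338.7, 574.0 and 334.2 TPM to 175.9 and 121.7 TPM (-1.45 ± 0.25, adjusted p = 2.8e-05). Free_TGFb replicate 1, at 339.5 TPM, did not show this fall. Rpl36a fell from 194.2, 308.7 and 191.0 TPM to 135.3 and 79.9 TPM (-1.11 ± 0.24, adjusted p = 0.00029), and Free_TGFb replicate 1 lay between, at 113.1 TPM. Rpl39, a very small protein of the exit tunnel, fell from 326.8, 488.3 and 297.3 TPM to 277.3 and 120.2 TPM (-0.98 ± 0.28, adjusted p = 0.004), and without Free_TGFb replicate 3 this was -0.38 (adjusted p = 0.29). Rpl10, one of the last proteins to join the large subunit, fell from 806.0, 1136 and 788.1 TPM to 559.7 and 522.8 TPM (-0.73 ± 0.11), with Free_TGFb replicate 1 at 364.2 TPM. Rps4x fell by 0.48 ± 0.13, and Rpl41, Rpl31 and Rpl24 fell by 0.62, 0.50 and 0.42. The median transcript length was 621 bases for the 8 genes that fell, 980.5 for the 16 that rose and 678.5 for the other 60 with a length, and the part of length was not tested. With the trend of length and GC content removed, 26 were higher and 15 lower.

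**Figure D2:**
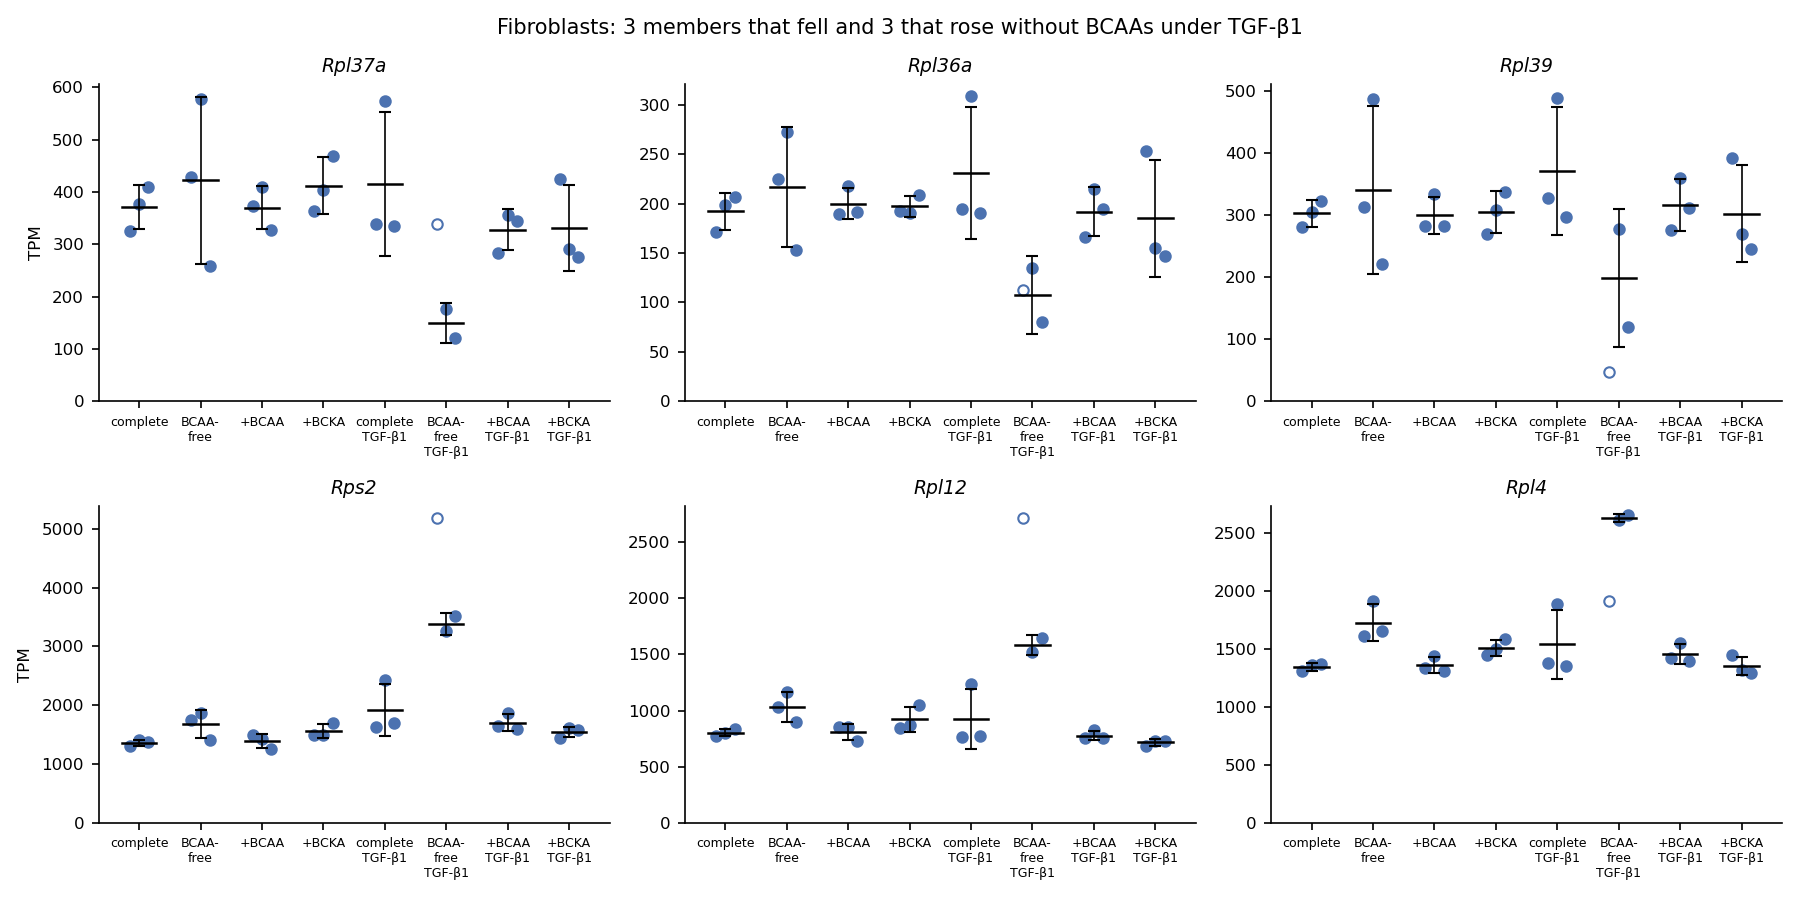
TPM (y axis, from 0) of Rpl37a, Rpl36a, Rpl39, Rps2, Rpl12 and Rpl4 in the 8 fibroblast groups (x axis). Points are libraries, short lines the mean, error bars the SD, and the open point is Free_TGFb replicate 1. The BCAA-free TGF-β1 cultures stand below the other TGF-β1 groups for Rpl37a and Rpl36a, overlap the add-back groups for Rpl39, and stand above all of them for Rps2, Rpl12 and Rpl4, while the open point does not share the low level of Rpl37a.

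Position was a shared feature that the choice of genes did not use, noticed after the values were seen. The 4 tested members on the X chromosome, Rpl10, Rpl36a, Rpl39 and Rps4x, were all lower, as were 4 of the 81 on other chromosomes. Of all X-chromosome genes tested, 28.7% of 436 were lower and 38.5% higher, against 23.3% and 42.6% of 12643 on other chromosomes. Eif2s3x, an X-linked initiation factor subunit, rose by 1.495 ± 0.129. When BCAAs were put back, all 4 rose, where 26.8% of all X-chromosome genes tested were higher. With BCKAs, 3 of the 4 rose (25.7% of all X-chromosome genes), and Rps4x was not called. These rises use the same Free_TGFb libraries as the falls and carry no separate support. Without Free_TGFb replicate 3, Rpl39 lost its call in the fall, and Rpl39 and Rpl36a lost theirs in both rises.

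The response to TGF-β1 itself differed with the medium. In medium without BCAAs, TGF-β1 left 18 of 85 genes higher and 8 lower (background 34.2% and 32.4%), with rises led by Rps2 (1.02 ± 0.14), Rpl8 (0.71 ± 0.14) and Rpl12 (0.63 ± 0.15) and falls by Rpl37a (-1.45 ± 0.25), Rpl10 (-1.08 ± 0.11) and Rpl36a (-1.01 ± 0.24). Without Free_PBS replicate 1, 2 or 3 the count of higher genes was 11, 29 or 9, and without Free_TGFb replicate 2 it was 10. The count of lower genes was 5 or 14 without Free_PBS replicate 2 or 3, and 15 or 4 without Free_TGFb replicate 2 or 3. The test of the difference between the TGF-β1 effects in the 2 media called 3 genes higher (Rps2, Rpl4 and Rpl7l1) and 10 lower without BCAAs, where 37.7% and 19.1% of all genes were called. Rpl37a differed most, by -1.57 ± 0.34, and then Rpl36a, Rpl39, Rpl10 and Rps4x. Centring gave 0 higher and 28 lower. Without Free_TGFb replicate 2, 26 were lower, without Free_PBS replicate 3, 18, and without Free_PBS replicate 2 or Free_TGFb replicate 3, 5. Without Complete_TGFb replicate 2, 11 were higher and 6 lower.

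Putting BCAAs or BCKAs back under TGF-β1 left more ribosomal protein genes lower than higher, as it did for all genes. These comparisons share the 2 Free_TGFb libraries with those above, so values are given side by side and carry no separate support. With BCAAs 5 of 85 genes were higher and 26 lower, 5.88% and 30.6%, both under the background of 23.5% and 40.3%. With BCKAs 4 were higher and 35 lower, 4.71% and 41.2%, and the lower share was near the background (23.4% and 40.4%). The medians were -0.17 and -0.29 log2, against -0.16 over all genes in both. With Free_TGFb replicate 1 kept in its group the BCAA median turned to 0.12.

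Rpl37a stood at 283.7, 355.8 and 345.3 TPM with BCAAs and at 425.7, 291.6 and 276.4 TPM with BCKAs, higher than the 175.9 and 121.7 TPM without either (1.15 ± 0.25 in both). Rpl36a rose by 0.87 ± 0.24 and 0.78 ± 0.24, Rpl39 by 0.78 ± 0.28 and 0.69 ± 0.28, and Rpl10 by 0.60 ± 0.11 and 0.48 ± 0.11. Rpl39 overlapped between the groups in both, and without Free_TGFb replicate 3 its values were 0.18 and 0.095 and no longer called. Without Free_TGFb replicate 3 the Rpl36a values were 0.49 and 0.41 and no longer called. Rpl12 stood at 752.0, 826.0 and 751.7 TPM with BCAAs and at 683.5, 732.2 and 731.5 TPM with BCKAs (-1.03 ± 0.15 and -1.14 ± 0.15). Rps2 fell by 0.99 ± 0.14 and 1.13 ± 0.14, and Rpl4 by 0.85 ± 0.11 and 0.96 ± 0.11. The stalk proteins Rplp1 and Rplp2 fell by 0.58 and 0.43 with BCAAs and by 0.74 and 0.49 with BCKAs, and Rplp0 fell with BCKAs, by 0.31 ± 0.13, a direction that turned (0.16) with Free_TGFb replicate 1 kept in its group. Without Free_TGFb replicate 2 the counts of lower genes were 15 and 20, and of higher genes 10 and 7. Without Free_TGFb replicate 3, 2 were higher in each. Without Free_add_BCAA_TGFb replicate 2, 3 were higher with BCAAs, and without Free_add_BCKA_TGFb replicate 1, 2 were higher with BCKAs.

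BCKAs and BCAAs under TGF-β1 gave no called difference in any ribosomal protein gene. By limma 0 of 85 were called (background 0.428% higher and 0.229% lower), 0 had an unadjusted p under 0.05 (background 3.49% higher and 3.22% lower), and the smallest adjusted p was 0.91. With BCKAs 80 of 85 lay lower, with a median of -0.10 log2 against -0.01 over all genes. The differences ran from -0.23 to 0.31 log2 with a median standard error of 0.14, which does not show that the 2 supplements act alike.

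Other parts of the pathway gave larger medians than the 0.02 log2 of the ribosomal proteins. Ribosome biogenesis factors, which process ribosomal RNA and assemble subunits, were higher without BCAAs under TGF-β1 in 31 of 32 tested, with a median of 1.93 log2 (background 42.4%). Rrp12, a subunit export factor, rose by 2.89 ± 0.14, and Utp20, of the small-subunit processome, by 2.46 ± 0.09. Of 11 genes of RNA polymerase I, which transcribes ribosomal RNA, 10 were higher, among them Polr1a (2.01 ± 0.14) and Polr1b (1.94 ± 0.11). Of 14 genes listed under TOP message control, a list that also holds the transcription factor Myc, 10 were higher and 2 lower. Myc stood at 1.74 ± 0.11 and Larp1 at 1.34 ± 0.08. Of 20 translation factors and other genes with TOP messages, 12 were higher and 1 lower, led by Eif2s3x and by Npm1 (1.44 ± 0.14), while Rack1, a small-subunit scaffold, rose by 0.39 ± 0.12. Of 78 mitochondrial ribosomal proteins 38 were higher and 9 lower, where 42.4% and 23.5% of all genes were. The share higher was near that background. With BCAAs back, 31 biogenesis factors and 10 polymerase I genes were lower, and the same numbers with BCKAs (background 40.3% and 40.4% lower). These falls use the same 2 Free_TGFb libraries as the rises and carry no separate support. The lists were chosen with earlier results of these data known.

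With TGF-β1 in complete medium, 0 biogenesis factors were higher and 16 lower, with Rrs1 at -1.01 ± 0.09. The 16 are of 32 tested, near the 43.6% of all genes that were lower. In the same comparison 7 of 20 TOP genes and 20 of 78 mitochondrial ribosomal proteins were higher and 0 lower, where 16% of all genes were higher. Eef1g, of the elongation factor complex, rose by 0.71 ± 0.10 there. In resting cultures without BCAAs, 3 of 20 TOP genes were called higher (background 1.18%), Eef1a1 (0.42 ± 0.09) and Hnrnpa1 (0.33 ± 0.08) among them, and none of the other lists held a called gene.

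Markers of the cultures bear on their identity. The summed level of 10 fibroblast markers was 16307 to 53576 TPM in the 23 libraries. The summed level of 4 airway markers was at most 0.373 TPM in any culture. T cell and red-cell markers were each at most 0.755 TPM in sum.

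**Figure D3:**
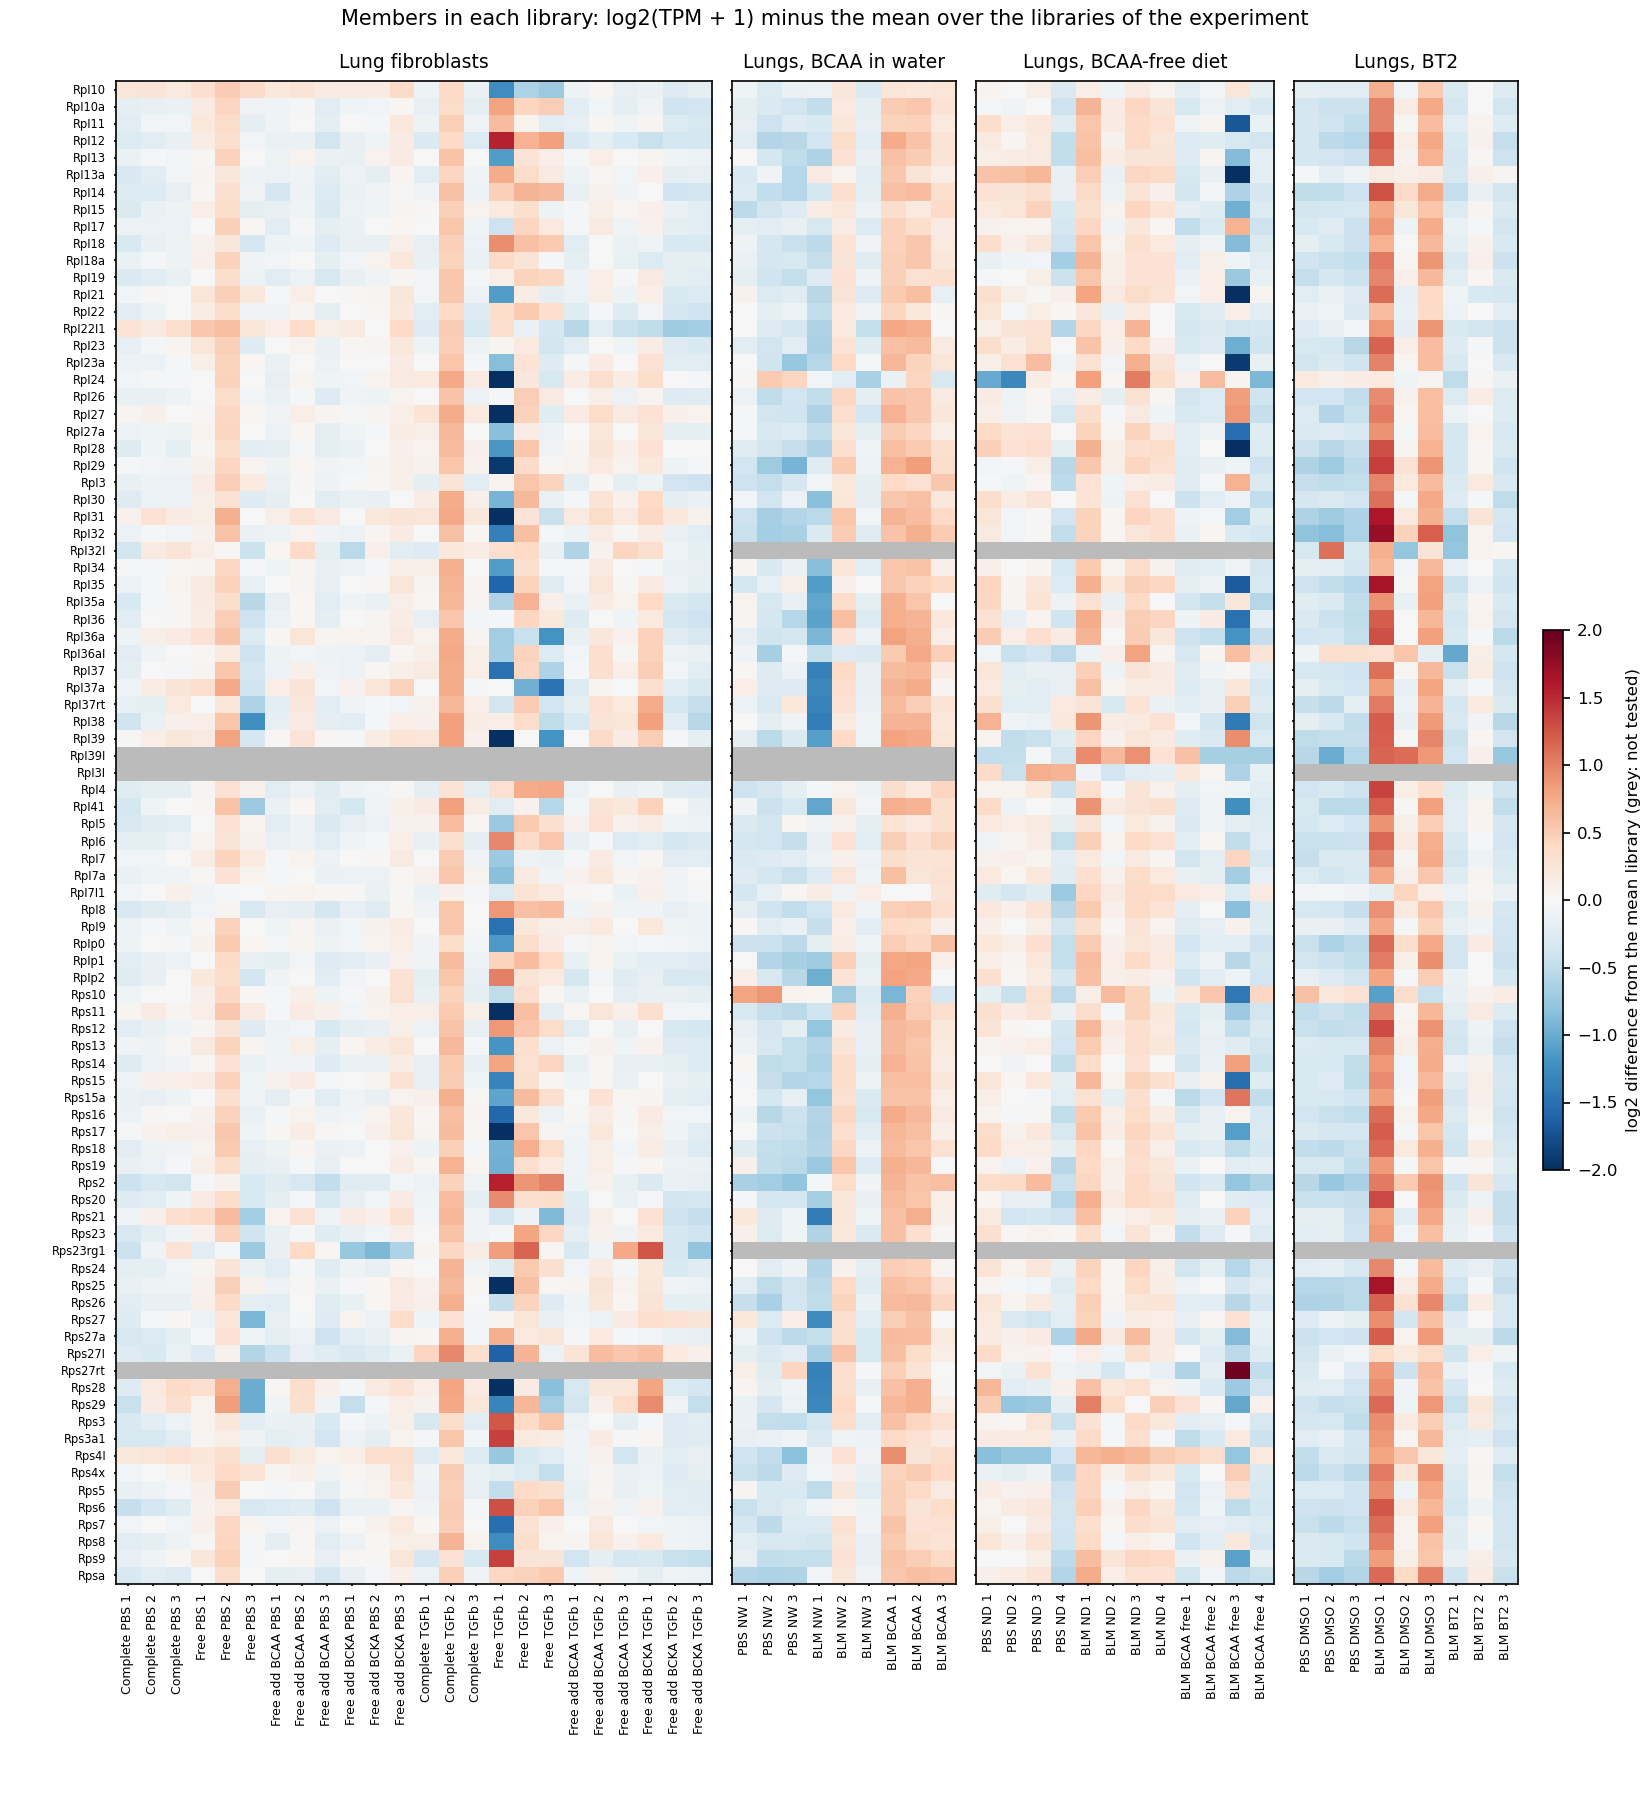
Each ribosomal protein gene (rows) in each library (columns) of the 4 tables, as log2(TPM + 1) minus the gene's mean over that table's libraries, from blue (lower) to red (higher), with colours ending at 2 in either direction and untested genes in grey. Free_TGFb replicate 1 and BLM_BCAA_free replicate 3 stand out as columns of mixed colour, and bleomycin replicates 1 and 3 of the BT2 experiment as red columns, with replicate 2 paler.

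In whole lungs a level is an average over all cells, and fewer cells of a type cannot be told apart from less RNA in each. Marker sums of several cell types differed between the groups of each experiment, so they are given beside each result. The labels name heart tissue in the RNA extraction of a tissue sample labelled lung: heart muscle markers summed to 34.2 to 1126 TPM over the 30 lung libraries, and alveolar type 2 markers to 2276 to 75936 TPM.

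After bleomycin at 3.5 mg/kg the ribosomal protein genes rose almost as a block. Of 86 tested in the BT2 experiment, 71 were higher and 0 lower, against a background of 17.3% and 13.3%. The median difference from PBS lungs was 0.93 log2, where the median of all genes was -0.02. The 3 bleomycin lungs lay above all 3 PBS lungs for 75 genes (background 24.5%), and 83 of the 86 differences were above 0. Of the large subunit 42 of 52 were higher, and of the small 29 of 34, with medians of 0.95 and 0.91.

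Rpl32, a large-subunit protein, went from 449.8, 434.9 and 503.7 TPM to 2631, 1078 and 1788 TPM (1.89 ± 0.32, adjusted p = 0.0026). Rpl31, at the exit of the tunnel, went from 307.3, 289.2 and 307.3 TPM to 1449, 542.6 and 779.2 TPM (1.49 ± 0.33, adjusted p = 0.0084). Rps2 went from 849.4, 732.5 and 790.5 TPM to 2547, 1793 and 2306 TPM (1.47 ± 0.22, adjusted p = 0.0016). For each of the 3 the groups did not overlap, which the choice of named genes required. Bleomycin replicate 2 was the lowest of its group in each. The stalk proteins Rplp0 (1.28 ± 0.25), Rplp1 (1.13 ± 0.28) and Rplp2 (0.67 ± 0.21) all rose, as did Rpsa (1.46 ± 0.23), Rps6 (1.11 ± 0.25) and the ubiquitin fusion Rps27a (1.12 ± 0.26).

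The 15 genes not called include Rps10, Rpl24, Rpl36al and Rpl13a, the tested genes that were at least 10 times higher in the fibroblast median, and Rps27 with its copies Rps27rt and Rps27l. Rps10 stood at 16.5, 12.6 and 13.3 TPM in PBS lungs and at 4.55, 14.0 and 7.61 TPM after bleomycin. Rpl22, its copy Rpl22l1, and Rpl7l1, a copy of Rpl7, were not called either (Rpl7l1 0.18 ± 0.16). Of 103 entries named as ribosomal protein pseudogenes 57 were higher and 4 lower with a median of 0.98, and reads shared between the 2 kinds of entry cannot be told apart. Leaving out a PBS lung lowered the count most, to 43, 43 or 38.

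The mitochondrial ribosome and the TOP genes rose in part. Of 80 mitochondrial ribosomal proteins 32 were higher and 0 lower, and of 20 TOP genes 11 and 0, with Rack1 at 1.17 ± 0.21, Eef1b2 at 1.01 ± 0.20 and Fau at 1.00 ± 0.28. Ribosome biogenesis factors did not share this, with 1 of 32 higher and 2 lower and a median of -0.05. Marker sums moved strongly: fibroblast markers from 737–793 TPM to 4238–4783 TPM, dividing-cell markers from 6.79–9.83 to 66.3–86.6 TPM, alveolar type 2 markers from 46987–59902 to 2276–15523 TPM, and airway markers from 104483–148614 to 11554–24486 TPM. Their part in the rise was not tested. With the airway transcripts Scgb1a1 and Scgb3a2 left out of each library, 55 were higher.

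**Figure D4:**
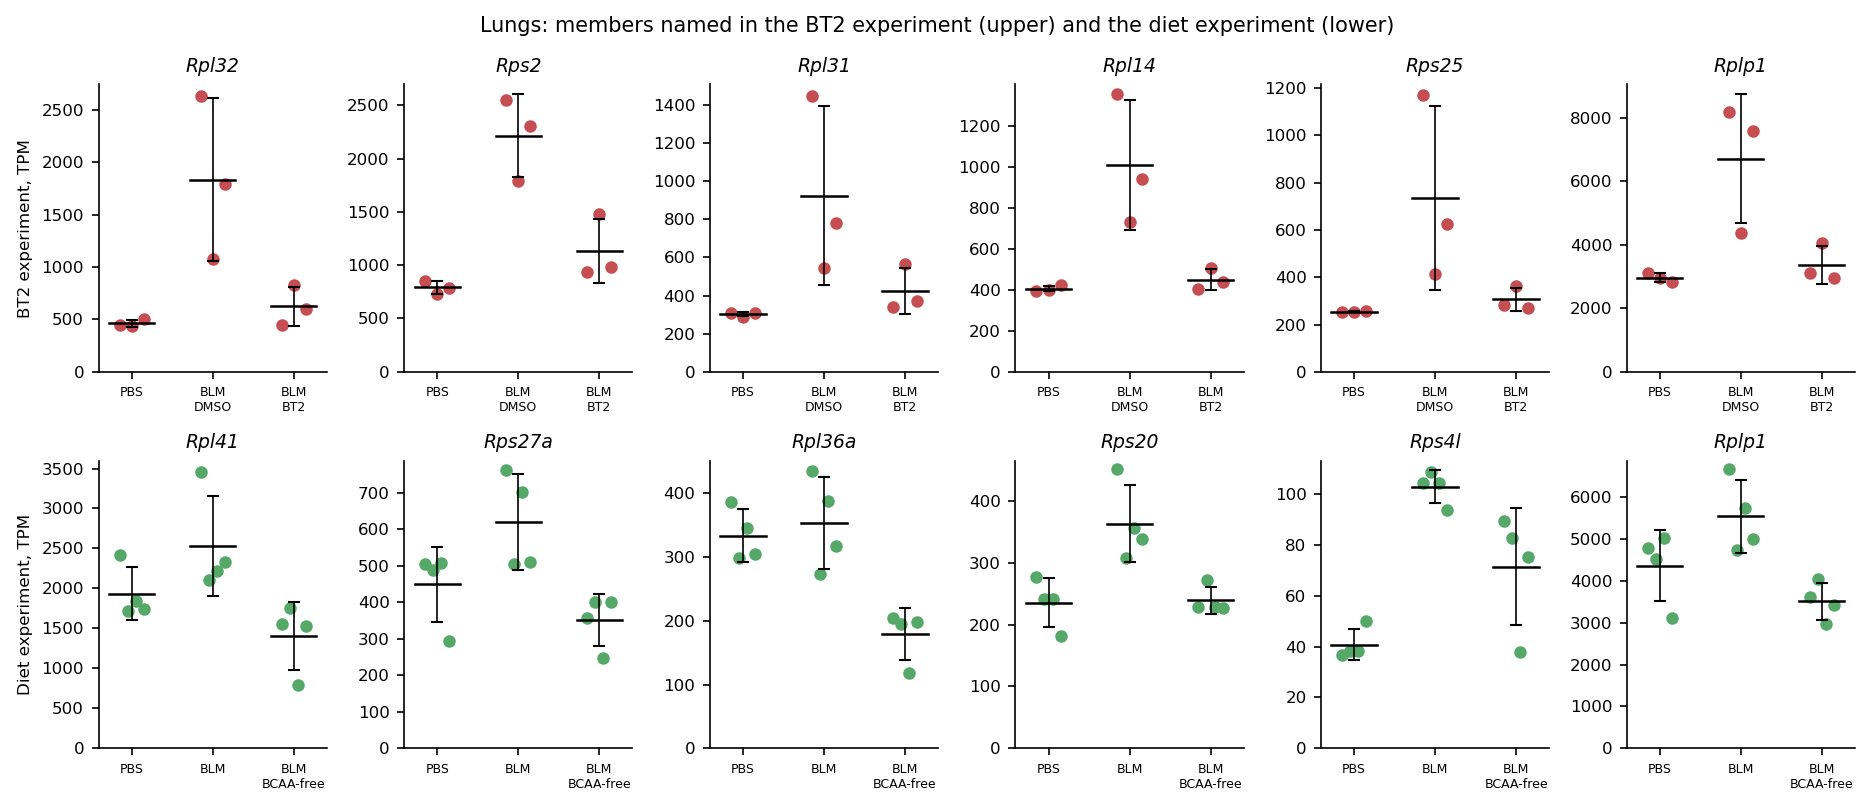
TPM (y axes, from 0) of 6 ribosomal protein genes in the BT2 experiment (upper row) and 6 in the diet experiment (lower row), by group (x axis). Points are lungs, short lines the mean and error bars the SD. In the upper row the bleomycin lungs lie above the PBS lungs. In the lower row no lung on BCAA-free diet reaches a bleomycin lung on normal diet for any of the 6 genes. Genes named as the largest changes were chosen among those whose groups did not overlap.

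BT2 given after bleomycin brought the ribosomal protein genes down. Against bleomycin with DMSO, 0 of 86 were higher and 26 lower (background 6.34% and 5.41%), with a median of -0.76 log2 and 0.12 over all genes. At an unadjusted p under 0.05, 77 were lower (background 13.7%), 85 of 86 lay below 0, and 45 did not overlap (background 14.3%). The calls were 13 of 52 in the large subunit and 13 of 34 in the small. Both comparisons of this experiment use the same 3 bleomycin lungs, in which the ribosomal protein genes made up 12.1, 6.25 and 9.65% of TPM. With BT2 the share was 5.10 ± 0.783% (SD, n = 3), and in PBS lungs 4.45 ± 0.134% (SD, n = 3).

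Rpl32 stood at 445.9, 823.8 and 602.1 TPM with BT2, against 2631, 1078 and 1788 TPM (-1.50 ± 0.32, adjusted p = 0.023). Rps25, a small-subunit protein known for its part in internal initiation, stood at 284.0, 363.5 and 270.4 TPM against 1169, 412.6 and 624.2 TPM (-1.14 ± 0.32, adjusted p = 0.046). Rpl14 stood at 404.1, 504.3 and 436.5 TPM against 1352, 732.0 and 937.2 TPM (-1.13 ± 0.22, adjusted p = 0.018). None of the 3 overlapped between the groups, which the choice of named genes required. Rplp0, Rps6, Rpsa and Rps27a fell by 0.95, 0.98, 1.07 and 1.01, while Rplp1 (-0.96 ± 0.28, adjusted p = 0.054) and Rplp2 (-0.57 ± 0.21) were not called.

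The number called depended on single lungs. Without BLM_BT2 replicate 1 or 3 it was 0, without BLM_DMSO replicate 1 it was 2, without BLM_DMSO replicate 3 it was 9, and without BLM_BT2 replicate 2 it was 14. Without BLM_DMSO replicate 2, the lowest of its group, it was 79. Without a filter on low genes it was 2. Rps25 lost its call under 10 of 13 alternatives, Rpl32 under 4 and Rpl14 under 2. Of other lists, 6 of 20 TOP genes, 4 of 32 biogenesis factors and 7 of 80 mitochondrial ribosomal proteins were lower, with 0 higher in each, and Nhp2, a protein of box H/ACA particles, fell by 1.27 ± 0.22. Pseudogene entries were lower in 29 of 103 and higher in 3. With BT2 the fibroblast markers stood at 1234–2863 TPM, dividing-cell markers at 26.4–63.0 TPM, alveolar type 2 markers at 43320–75936 TPM and macrophage markers at 19207–20752 TPM, against 11325–16372 TPM with DMSO. The part of cell makeup was not tested.

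**Figure D5:**
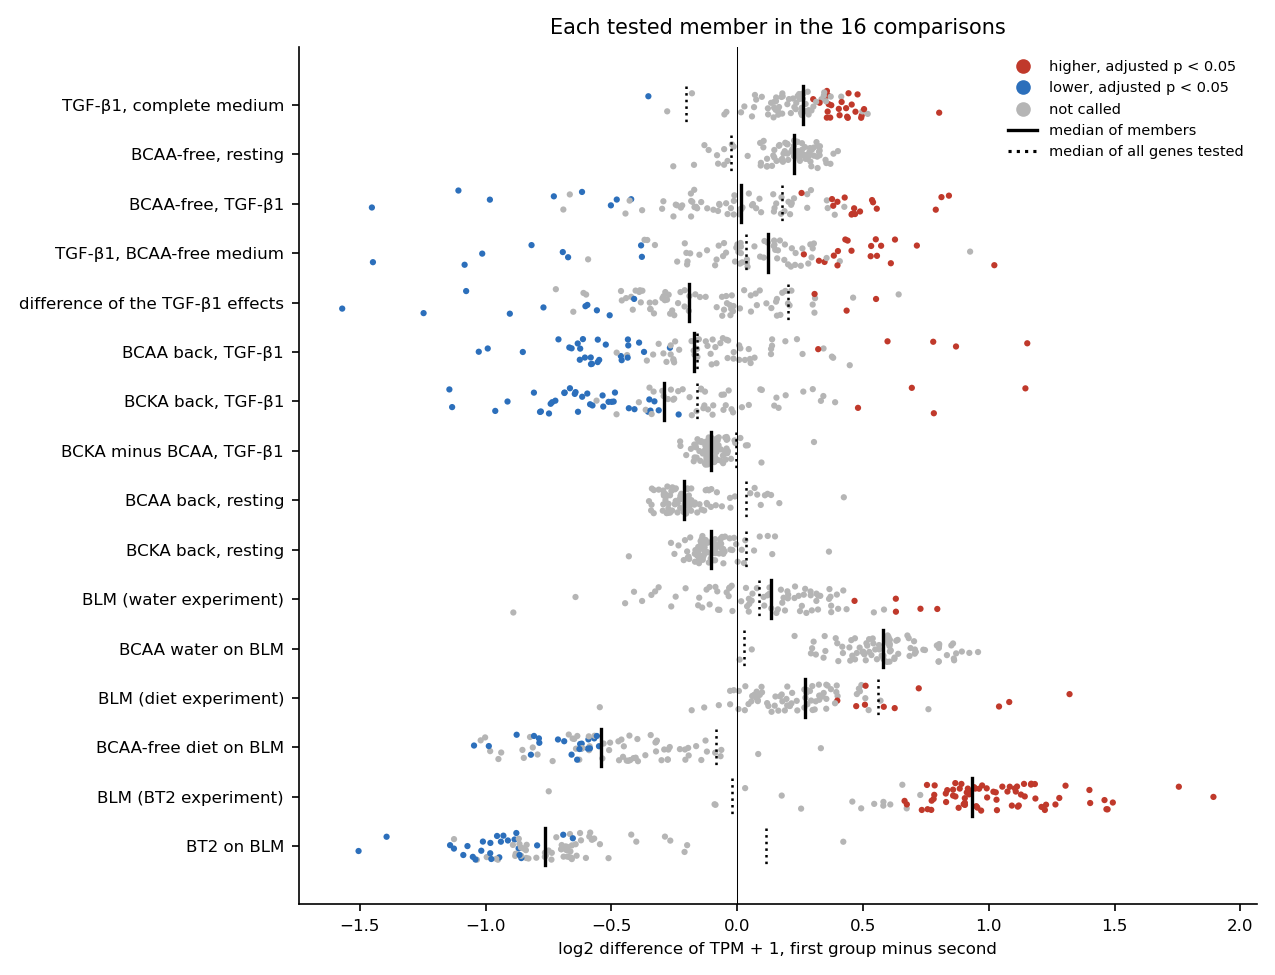
Log2 difference of TPM + 1 (x axis) of each tested ribosomal protein gene in the 16 comparisons (rows, first group minus second). Red and blue points are called higher and lower, grey points not called, solid lines the median of these genes and dotted lines that of all genes tested. The rows that use the Free_TGFb libraries spread widest among the fibroblasts. In the lungs a common shift marks bleomycin and BT2 in the BT2 experiment, the BCAA-free diet, and BCAA water, where no gene was called.

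A BCAA-free diet after bleomycin also lowered ribosomal protein genes. Against bleomycin on normal diet, 0 of 86 were higher and 21 lower (background 4.02% and 6.12%), with a median of -0.54 log2 and -0.09 over all genes. At an unadjusted p under 0.05, 60 were lower (background 15.7%), 49 did not overlap (background 13.2%), and 84 of 86 lay below 0. The share of TPM was 5.19 ± 0.304% (SD, n = 4) on the BCAA-free diet, 7.35 ± 0.988% (SD, n = 4) on normal diet and 6.15 ± 0.914% (SD, n = 4) in PBS lungs.

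Rpl36a stood at 204.3, 195.0, 118.5 and 198.8 TPM on the BCAA-free diet, against 435.2, 273.2, 388.6 and 317.5 TPM on normal diet (-0.99 ± 0.20, adjusted p = 0.0086). It stayed called under every alternative run. Rpl41, the smallest ribosomal protein, stood at 1553, 1751, 791.6 and 1536 TPM against 3461, 2105, 2221 and 2325 TPM (-0.88 ± 0.25, adjusted p = 0.047). Rps27a stood at 356.8, 399.4, 248.3 and 399.6 TPM against 761.3, 505.4, 701.0 and 511.5 TPM (-0.82 ± 0.23, adjusted p = 0.038). The groups did not overlap for any of these 3, which the choice of named genes required. BLM_BCAA_free replicate 3 was the lowest of its group in each, and the differences include it. Rpl41 lost its call under 9 of 15 alternatives and Rps27a under 6. Rps6, Rpsa and Rpl10a fell by 0.63, 0.71 and 0.62. The stalk proteins Rplp0, Rplp1 and Rplp2, at -0.57, -0.65 and -0.51, were not called. Of the 21, 9 were of the large subunit and 12 of the small.

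Without BLM_BCAA_free replicate 3, the lung with 16.5% mitochondrial TPM, the count was 35. The median, share and differences above include that lung. Without BLM_ND replicate 1 or 3, the bleomycin lungs with the highest shares (8.61 and 7.57%), it was 1, without BLM_ND replicate 4 it was 10, and without BLM_BCAA_free replicate 1 or 4 it was 8 or 3. Without a filter on low genes it was 6. Of the lists, 2 of 20 TOP genes (Eef1b2 at -0.73 ± 0.16 and Btf3 at -0.49 ± 0.14), 7 of 80 mitochondrial ribosomal proteins and 0 of 32 biogenesis factors were lower. On this diet the fibroblast markers stood at 1870–3424 TPM against 3868–4723 TPM, dividing-cell markers at 16.6–21.8 against 60.4–90.4 TPM, and alveolar type 2 markers at 39762–58979 against 18931–26617 TPM, and their part was not tested.

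After bleomycin at 1.25 mg/kg the share of ribosomal protein genes called higher was below that of all genes in both experiments. In the diet experiment, on day 21, 10 of 86 (11.6%) were higher and 0 lower than in PBS lungs, while 48.7% of all genes tested were higher and 12.3% lower. The median was 0.27 log2, below the 0.56 of all genes. Centring each library on its median gave 1 higher and 19 lower, so the direction for this set depends on the scaling. Rps4l stood at 104.4, 108.6, 104.4 and 93.6 TPM against 36.5, 38.4, 38.4 and 49.9 TPM (1.32 ± 0.23, adjusted p = 0.00027) and stayed called under every alternative run. Rpl7l1 (0.72 ± 0.15) and Rps20 (0.63 ± 0.16) rose too, and both calls were lost with centring (0.16 and 0.06). Without BLM_ND replicate 3 the count was 6. Beside this, 19 of 32 biogenesis factors, 8 of 13 polymerase I genes and 8 of 20 TOP genes were higher. So were 13 of 14 genes of the TOP control list, with the transcription factor Mycn higher by 2.07 ± 0.21. In PBS lungs of this experiment mitochondrial transcripts took 12.2 to 17.3% of TPM, against 4.41 to 5.29% after bleomycin, and airway markers 116517–285128 against 24669–29191 TPM. With mitochondrial transcripts left out 4 genes were higher, and with Scgb1a1 and Scgb3a2 left out 3 were higher and 1 lower.

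In the water experiment, on day 14, 5 of 84 (5.95%) were higher and 0 lower (background 14.8% and 7.08%): Rps2, Rpl29, Rpsa, Rps4l and Rpl15. The median was 0.13 log2, against 0.09 over all genes. Rps2 stood at 1030, 1370 and 1015 TPM after bleomycin and at 677.1, 655.7 and 616.0 TPM after PBS (0.80 ± 0.15, adjusted p = 0.0038). Its groups did not overlap, as the choice of named genes required. Rpsa stood at 800.0, 969.0 and 793.1 TPM against 554.9, 544.4 and 547.0 TPM (0.63 ± 0.13, adjusted p = 0.006). Rps2 and Rpsa stayed called under every alternative run, while Rpl29 (0.73 ± 0.23) did not. The count was 2 without PBS_NW replicate 2 or BLM_NW replicate 2 and 3 without PBS_NW replicate 1 or 3 or BLM_NW replicate 3. Of 32 biogenesis factors 8 were lower and 0 higher, while 14 of 80 mitochondrial ribosomal proteins and 4 of 20 TOP genes were higher and 0 lower. Fibroblast markers stood at 1759–2452 TPM after bleomycin and 566–792 TPM after PBS, and airway markers at 50117–110433 and 137091–246451 TPM.

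BCAAs in the drinking water before bleomycin gave higher values for every ribosomal protein gene tested without any call. All 84 differences from bleomycin on normal water were above 0, with a median of 0.58 log2 and 0.03 over all genes. By limma 0 were called (background 0.872% higher and 0.331% lower), 71 had an unadjusted p under 0.05 with a higher value (background 10.9%), and the smallest adjusted p was 0.073. The groups did not overlap for 24 genes (background 12.3%). The share of TPM was 7.20, 6.88 and 5.90% with BCAA water, and 3.62, 5.87 and 4.39% on normal water, so the groups were just apart. Without BLM_NW replicate 2, the lung with the highest share of its group, 36 genes were called higher.

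Rpsa, with the smallest adjusted p, stood at 1210, 1257 and 1241 TPM with BCAA water against 800.0, 969.0 and 793.1 TPM (0.54 ± 0.13, adjusted p = 0.073). Rplp0 stood at 2465, 2325 and 2636 TPM against 1536, 1937 and 1647 TPM (0.54 ± 0.14, adjusted p = 0.093). Both gave groups that did not overlap. Rplp1 and Rplp2 overlapped, with differences of 0.70 ± 0.30 and 0.80 ± 0.32. Shorter members lay higher here: Spearman's rho with transcript length was -0.53 across 84 genes, a description across genes that are not independent. No gene of the other lists was called. Fibroblast markers stood at 3253–4097 TPM with BCAA water and 1759–2452 TPM without, airway markers at 22633–43790 and 50117–110433 TPM, and dividing-cell markers at 78.6–86.4 and 43.2–91.1 TPM, and their part was not tested.

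Side by side, the 3 treatments of bleomycin lungs gave median differences of 0.58 (BCAA water), -0.54 (BCAA-free diet) and -0.76 log2 (BT2) over the ribosomal protein genes tested in each. Doses of bleomycin, days and batches differ between these experiments and no test was made across them. For Rplp0 the values were 0.54 ± 0.14, -0.57 ± 0.18 and -0.95 ± 0.25, for Rpsa 0.54 ± 0.13, -0.71 ± 0.21 and -1.07 ± 0.23, and for Rps6 0.40 ± 0.13, -0.63 ± 0.17 and -0.98 ± 0.25. None of these genes was called with BCAA water, and Rplp0 was not called on the BCAA-free diet. In the fibroblasts, BCAA withdrawal under TGF-β1 gave 0.40 ± 0.13 for Rpsa and 0.38 ± 0.15 for Rps6, both called higher. Rplp0 was not called there.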

How the data were processed

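Poly(A) RNA of 24 fibroblast and 30 lung libraries was sequenced. The authors deposited 4 tables of TPM. The submitters' processing notes name mm39 as the build and list HISAT2, Subread with featureCounts, FastQC, DESeq2 and Trim Galore, with no versions or roles. Counts were not used here, so depth is unknown. Entries without a symbol (0.212 to 0.367% of lung TPM) were left out and repeated symbols summed. The scale was log2(TPM + 1). Genes with at least 1 TPM in at least 3 libraries were fitted with group means per table in limma 3.58.1 (R 4.3.3, mean-variance trend), two-sided, with Benjamini-Hochberg adjustment over all genes of a comparison, 16 comparisons in all. The fit was tested on simulated data with noise drawn independently for each gene. That cannot show how calls behave under shifts shared within a library. Comparisons with Free_TGFb were not among those simulated. Free_TGFb replicate 1 had a group of its own. Same-numbered fibroblast libraries correlated between -0.486 and 0.535, with a median of 0.016, against -0.012 for different numbers. In the water, diet and BT2 lungs the medians for same numbers were -0.051, -0.008 and 0.025. Numbers were therefore not taken to pair samples.

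The genes and lists were chosen with earlier results of these data known. Named genes were the 3 largest rises and 3 largest falls per comparison among called genes with a mean of at least 5 TPM and no overlap, fixed copies with their partners, stalk proteins and a few others, and 2 called genes of each other list. Others are named where a count or pattern was small, chosen after their values were seen. Lengths are from GENCODE vM21 and promoters from RefSeq. Each label batch holds 1 experiment, so no comparison crosses batches. Alternatives changed the pseudocount, the filter, the scaling, the replicate block and the libraries kept.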

Additional observations from a re-analysis of the deposited data

Results flagged for a closer look

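In the groups of 4 lungs, single libraries lay far from the others in 8 of 39 groups of values tested, where chance gives about 1 in 20, and 3 of the 8 were in BLM_BCAA_free replicate 3. That lung had the widest spread over the ribosomal protein genes (0.778 log2, others 0.183 to 0.196), and its Rpl36a (118.5 TPM, others 195.0 to 204.3) and Rpl7l1 (54.7 TPM, others 73.0 to 76.5) were the lowest of its group. Rpl39l was at 1.36 TPM in BLM_BCAA_free replicate 1 and at 0 in the other 3, and Rps20 was at 272.6 TPM in replicate 2 (others 226.9 to 228.9). Rpl41 was at 3461 TPM in BLM_ND replicate 1 (others 2105 to 2325). In PBS_ND replicate 4, Rps27a was at 293.8 TPM (others 487.1 to 508.0) and Rps4l at 49.9 TPM (others 36.5 to 38.4).

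The TGF-β1 effect differed between BCAA-free and complete medium for 13 ribosomal protein genes by limma's test of that difference. Of the 85 tested, 3.53% were higher and 11.8% lower, both below the 37.7% and 19.1% of all genes tested. The effect was lower without BCAAs for Rpl37a (-1.57 log2), Rpl36a (-1.25), Rpl39 (-1.08), Rpl10 (-0.90), Rps4x (-0.77), Rpl24 (-0.60), Rpl31 (-0.60), Rpl7 (-0.56), Rpl27a (-0.51) and Rpl7a (-0.41). It was higher for Rps2 (0.55), Rpl4 (0.43) and Rpl7l1 (0.31). The adjusted p ran from 3.1e-05 for Rpl10 to 0.046 for Rpl31.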

How the results depend on the processing

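TPM without counts leaves counting error unknown, groups of 2 to 4 libraries let single libraries set counts, and near-identical copies leave single genes uncertain. The cause of each change below was not tested. Among called genes that the text or the rule names, 1178 of the values with 1 library left out kept direction and call and 290 kept direction only. Under other settings 1321 kept both, 161 kept direction only and 4 reversed: with Free_TGFb replicate 1 kept in its group, Rps27l under TGF-β1 without BCAAs (-0.10) and Rplp0 on BCKA return (0.16), and with each library centred on its median, Rpl10a (-0.056) and Rps4x (-0.053) after bleomycin in the diet experiment.

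Counts of called genes that moved by over 1.5 times are given as higher or lower. For TGF-β1 in complete medium, no filter gave 14 higher and 0 lower, centring 64 and 0, and removing the trend of length and GC content 60 higher. For BCAA withdrawal under TGF-β1, no filter gave 5 lower, centring 6 higher and 20 lower, keeping Free_TGFb replicate 1 gave 19 lower, and trend removal 26 higher and 15 lower. For TGF-β1 without BCAAs, no filter gave 11 higher, keeping that library 14 lower and trend removal 33 higher. For the difference of the TGF-β1 effects, no filter gave 5 lower, centring 0 higher and 28 lower, and trend removal 6 higher and 21 lower. On BCAA return, higher genes were 3 with no filter and 8 with centring, with that library kept and with trend removal, and on BCKA return centring gave 21 lower. In resting cells trend removal gave 10 higher on withdrawal and 2 lower on BCAA return. For bleomycin in the water experiment, higher and lower counts were 2 higher with no filter, 2 and 2 with centring, 3 and 2 with trend removal, and 2 and 1 without Scgb1a1 and Scgb3a2. In the diet experiment they were 6 higher with no filter, 1 and 19 with centring, 4 higher without mitochondrial transcripts, 3 and 4 with trend removal, and 3 and 1 without the 2 Scgb genes. In the BT2 experiment, no filter gave 46 higher and centring 1 lower. The BCAA-free diet gave 6 lower with no filter. BT2 gave 17 lower with a pseudocount of 0.1, 2 with no filter, 13 with centring and 17 without the 2 Scgb genes. The trend and Scgb alternatives were chosen after seeing the data.

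With the replicate block, which has no basis in the labels, BCAA withdrawal in resting cells gave 2 higher, bleomycin in the water experiment 3 higher, the BCAA-free diet 12 lower and BT2 7 lower. Every other count stayed within 1.5 times under the block.

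With 1 library left out in turn, counts ranged over 6 to 40 higher and 0 to 4 lower for TGF-β1 in complete medium, 9 to 34 and 3 to 16 for withdrawal under TGF-β1, 9 to 29 and 4 to 15 for TGF-β1 without BCAAs, 2 to 11 and 5 to 26 for the difference, 2 to 10 and 15 to 28 on BCAA return, and 2 to 7 and 20 to 43 on BCKA return. In lungs they ranged over 2 to 7 higher for bleomycin and 0 to 36 higher for BCAAs in the water experiment, 6 to 13 higher and 0 to 1 lower for bleomycin and 1 to 35 lower for the BCAA-free diet, and 38 to 80 higher and 0 to 1 lower for bleomycin and 0 to 1 higher and 0 to 79 lower for BT2. The median over the ribosomal protein genes changed sign under some settings for bleomycin in the diet experiment (-0.29 with centring, -0.11 with trend removal, -0.01 without the Scgb genes), for withdrawal under TGF-β1 (-0.18 with centring, -0.29 with Free_TGFb replicate 1 kept) and for BCAA return (0.12 with that library kept).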
